A study of Homo sapiens with 18 samples.

Results

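The ADAMTS proteases followed here were 7 genes, ADAMTS1, ADAMTS6, ADAMTS7, ADAMTS9, ADAMTS10, ADAMTS12 and ADAMTS15, taken by symbol from the deposited tables of counts and normalized values, where 21119 genes carried a symbol and 17 belonged to the ADAMTS family. All 7 had a value in each of the 18 libraries. The libraries came from MDA-MB-231 cells, an established triple-negative breast cancer line, grown for 7 days as 3D cultures from 50000 cells in 2 mg/ml Matrigel, with 3 biological replicates in each of 6 conditions. Jag1WT was the parental line, and Jag1KO pooled clones grown from single cells after Cas9 editing of JAG1. Jag1KO + rescue cells were Jag1KO cells carrying Jagged1 cDNA on a pcDNA3.1 plasmid, and the empty plasmid gave Jag1KO + ctrl cells, both under G418 selection. siCtrl and siJag1 were Jag1WT cells transfected with nontargeting or Jagged1-targeting siRNAs. Because the knockout cells went through single-cell cloning and the parental cells did not, loss of Jagged1 and clonal origin cannot be told apart between Jag1WT and Jag1KO. All RNA values are from whole cultures, in which fewer cells of a type and less RNA per cell cannot be told apart.

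ADAMTS proteins are secreted zinc metalloproteases with a prodomain, a catalytic domain and thrombospondin repeats that hold them near the cell surface and in the matrix. Furin-like convertases remove the prodomain, TIMP3 is their best known tissue inhibitor, and the receptor LRP1 takes several of them back into the cell. ADAMTS1, ADAMTS9 and ADAMTS15 belong to the proteoglycanases, which cut versican and aggrecan, large proteoglycans of loose matrix and cartilage. ADAMTS6 and ADAMTS10 form a homologous pair tied to fibrillin microfibrils, and ADAMTS7 and ADAMTS12 form a pair that cleaves cartilage oligomeric matrix protein.

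The members lie on several chromosomes. In hg38 with GENCODE release 44, ADAMTS1 spans chromosome 21, 26835755 to 26845409, on the minus strand, and ADAMTS9 chromosome 3, 64515654 to 64688000, on the minus strand. ADAMTS15 spans chromosome 11, 130448645 to 130476645, on the plus strand. ADAMTS6 (65148738 to 65481920) and ADAMTS12 (33523535 to 33892019) are both on the minus strand of chromosome 5. ADAMTS7 is on chromosome 15, 78759206 to 78811464, and ADAMTS10 on chromosome 19, 8580240 to 8610735, both on the minus strand. The start of ADAMTS9 overlaps its antisense gene ADAMTS9-AS2 by 3092 bases. That row held 5 to 29 reads per library against 363 to 2007 for ADAMTS9. The libraries were stranded, but whether the counting used the strand is not given in the sources used here, so reads of the overlap are uncertain.

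Promoter sequences from RefSeq (GRCh38.p14, 250 bases before the start site) matched 4 of the 7 members, ADAMTS6, ADAMTS7, ADAMTS10 and ADAMTS12. ADAMTS1, ADAMTS9 and ADAMTS15 had no entry. Those of ADAMTS12, the member with the most reads, and of ADAMTS6, a member that spread widely in 2 of the groups, are shown, both 5′ to 3′ on the minus strand, with motif matches in capitals. The 250 bases of ADAMTS12 are chr5:33891991-33892240 and those of ADAMTS6 chr5:65481921-65482170.
ADAMTS12: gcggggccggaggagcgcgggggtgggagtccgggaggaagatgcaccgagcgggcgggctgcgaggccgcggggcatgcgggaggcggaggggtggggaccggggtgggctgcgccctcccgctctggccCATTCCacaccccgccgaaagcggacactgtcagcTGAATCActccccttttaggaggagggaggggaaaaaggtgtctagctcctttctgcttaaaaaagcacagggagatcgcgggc
ADAMTS6: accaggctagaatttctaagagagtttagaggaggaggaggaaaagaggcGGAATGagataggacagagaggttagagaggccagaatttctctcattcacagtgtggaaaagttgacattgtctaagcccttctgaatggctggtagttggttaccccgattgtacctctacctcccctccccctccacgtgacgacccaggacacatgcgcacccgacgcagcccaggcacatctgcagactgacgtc
The motifs searched on both strands were TGGGAA (the core bound by RBPJ, the DNA-binding partner of Notch), TGANTCA (a loose form of the AP-1 site) and GGAATG (TEAD). TGANTCA allows any middle base and matches alike on both strands. ADAMTS12 held it 84 bases before the start (position −84), with A in the middle. It also held GGAATG at −119 on the opposite strand, where this motif reads as the capitals shown. ADAMTS6 held GGAATG at −200, and neither promoter held TGGGAA. These letters are common, since TGGGAA was in 20.8%, TGANTCA in 6.57% and GGAATG in 11.9% of the 35116 promoters in the table. A match is a description of the sequence only. The ADAMTS12 promoter had 68.4% GC and that of ADAMTS6 52.4%, with a median of 58% over all promoters.

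Between 10330581 and 18327890 reads per library were counted on genes, and the chi-square between replicate libraries of a group, divided by its degrees of freedom, was 7.37 to 106.6, so that no library was a copy of another in its group. VIM, CD44, EGFR, KRT18 and AXL were present in each library at 127 CPM or more, while ESR1 had at most 2 reads, CDH1 at most 17 and PGR at most 26. ERBB2 (32.5 to 59.98 CPM) and EPCAM (5.18 to 8.99 CPM) were low but not absent. The mean log2(CPM + 1) of 97 cell cycle genes set Jag1KO replicate 1 (4.11 against 5.55 and 5.67), Jag1KO + ctrl replicate 3 (4.41 against 5.72 and 6.09) and siJag1 replicate 2 (6.07 against 4.32 and 4.41) apart from the other libraries of their groups. This mean was 4.10 to 4.91 in Jag1WT, 4.18 to 5.02 in Jag1KO + rescue and 4.18 to 5.10 in siCtrl. Without Jag1KO replicate 1, the Jag1KO libraries left lay above all of Jag1WT. Without Jag1KO + ctrl replicate 3, those left of Jag1KO + ctrl lay above all of Jag1KO + rescue. Fits without these 2 libraries thus set groups of unlike cell cycle level side by side. JAG1 itself was at 513 ± 76.7 CPM in Jag1WT and 157 ± 45.1 in Jag1KO (mean ± SD, n = 3 here and in each group), 612 ± 67.9 in Jag1KO + rescue and 131 ± 18.7 in Jag1KO + ctrl, and 532 ± 92.4 in siCtrl and 167 ± 35.7 in siJag1. Its log2 fold change was 1.71 in the knockout comparison (edgeR adjusted p = 0.0162), 2.22 in the rescue (edgeR adjusted p = 0.0229) and 1.68 with the siRNA, where the edgeR adjusted p was 0.111, or 0.0179 with the replicate number as a block. With each library removed in turn, JAG1 was called in 2 of 6 fits for the knockout, 1 of 6 for the rescue (without Jag1KO + ctrl replicate 3) and 1 of 6 for the siRNA (without siJag1 replicate 2).

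Of the 7 members, 5 were expressed. Levels are CPM, the counts scaled to library size after the trimmed-mean (TMM) normalization of the authors. Over the 18 libraries ADAMTS12 had a median of 88.1 CPM (451 to 1978 reads), ADAMTS9 57.0 CPM (363 to 2007 reads), ADAMTS1 31.6 CPM (107 to 1365 reads), ADAMTS15 10.7 CPM (53 to 364 reads) and ADAMTS6 8.42 CPM (66 to 370 reads). ADAMTS7 had 31 reads in all, at most 5 in a library and none in 4 of the 18, and its highest level was 0.354 CPM. ADAMTS10 had a single read, in siCtrl replicate 1. The other 17 libraries had 0 ADAMTS10 reads, which allows up to 0.164 to 0.290 CPM depending on the depth of the library (3 reads, counting error only). ADAMTS6 was thus detected without its partner ADAMTS10, and ADAMTS12 with its partner ADAMTS7 at a few reads. Both low genes failed the filter on low values in every comparison and were not tested. The lowest and highest library differed 12-fold for ADAMTS1, 6.76-fold for ADAMTS15, 6.61-fold for ADAMTS6, 5.80-fold for ADAMTS9 and 3.97-fold for ADAMTS12.

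**Figure D1:**
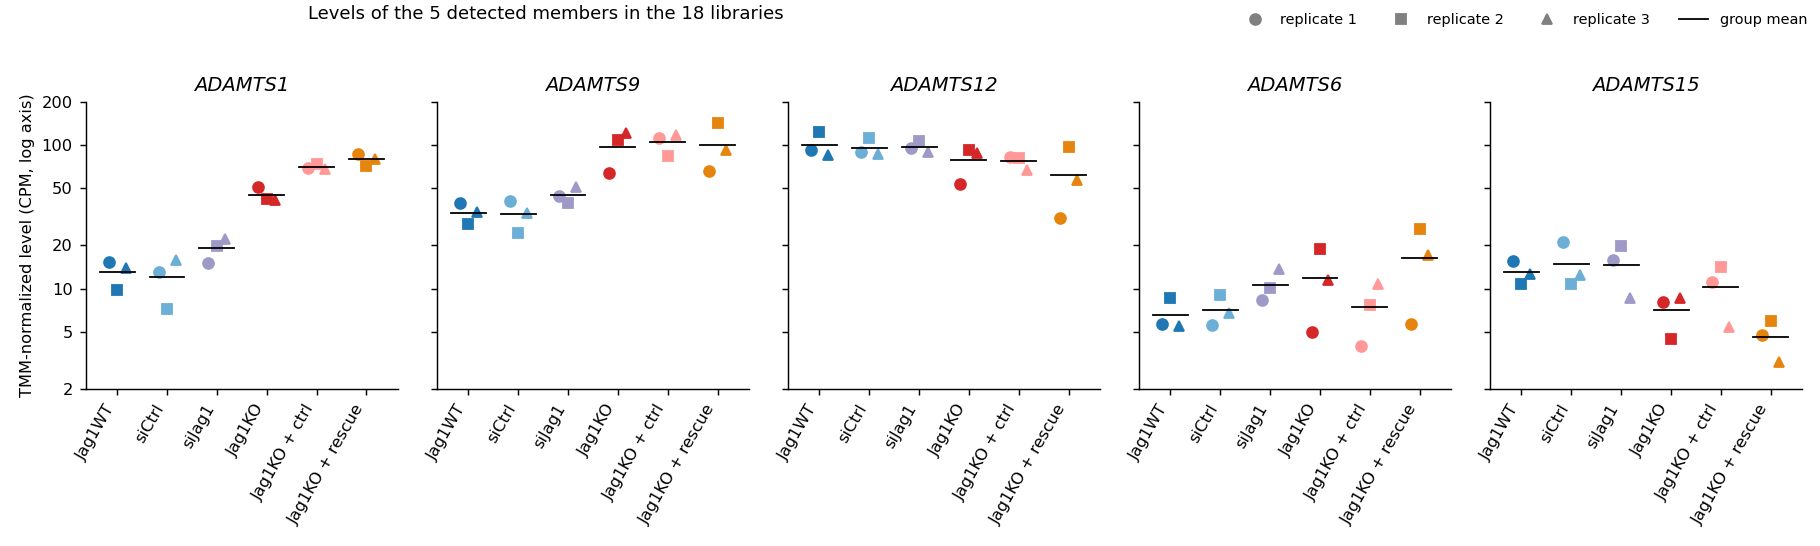
Level of each of the 5 detected members (TMM-normalized CPM, log axis) in the 18 libraries, by condition. Points are libraries, their shape gives the replicate number, and black lines are group means. ADAMTS1 and ADAMTS9 sit higher in all 9 libraries of the 3 Jag1KO conditions than in the other 9, while the other 3 members overlap.

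The first question was whether cells without Jagged1 carry other RNA levels of these proteases. ADAMTS1 was higher in Jag1KO than in Jag1WT by 3.45-fold and ADAMTS9 by 2.88-fold, and both passed the test. ADAMTS15 was lower in Jag1KO by its values but did not pass, and neither did ADAMTS6 or ADAMTS12. Thus 2 of the 5 members tested were called (adjusted p below 0.05 and fold above 1.5, edgeR quasi-likelihood test on 12879 genes), both lower in Jag1WT, while 0.714% of all genes tested were called.

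ADAMTS1, a versican- and aggrecan-cleaving protease also known for limiting vessel growth, was at 15.2, 9.85 and 13.8 CPM in Jag1WT replicates 1, 2 and 3. It was at 51.1, 41.7 and 41.1 CPM in Jag1KO. Every Jag1KO library lay above every Jag1WT library, and the spread within each group was small beside the gap. The log2 fold change of Jag1WT against Jag1KO was −1.79 (SE 0.187, 95% interval −2.21 to −1.36, edgeR adjusted p = 0.00918). The call was lost without Jag1WT replicate 3 (edgeR adjusted p = 0.0840) and without Jag1KO replicate 3 (edgeR adjusted p = 0.0558), where the log2 fold change was −1.84 each time.

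ADAMTS9, a widely expressed versicanase, was at 39.3, 28.3 and 33.9 CPM in Jag1WT and at 63.4, 107.6 and 120.4 CPM in Jag1KO. The groups did not overlap, and the lowest Jag1KO value was that of replicate 1, the library with the low cell cycle level. The log2 fold change was −1.53 (SE 0.242, 95% interval −2.08 to −0.97, edgeR adjusted p = 0.0406). Of the 6 fits with a library removed, 1 kept this call: without Jag1KO replicate 1 the edgeR adjusted p was 0.000292, where 7.3% of all genes were called. Without Jag1WT replicate 1, 2 or 3 it was 0.181, 0.182 and 0.243, and without Jag1KO replicate 2 or 3 it was 0.158 and 0.180, with log2 fold changes from −1.34 to −1.64.

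ADAMTS15, the third proteoglycanase among the members, went the other way, with 15.5, 10.8 and 12.7 CPM in Jag1WT and 8.09, 4.48 and 8.60 CPM in Jag1KO. These groups did not overlap either, but the log2 fold change of 0.88 (SE 0.270, 95% interval 0.26 to 1.498) did not pass (edgeR adjusted p = 0.354). Groups that did not overlap were found for 13.8% of the genes tested in this comparison. ADAMTS6 had 5.68, 8.57 and 5.48 CPM in Jag1WT against 5.02, 18.9 and 11.5 in Jag1KO. Its Jag1KO values spanned those of Jag1WT, with replicate 1 the lowest, and the log2 fold change was −0.85 (95% interval −1.86 to 0.16, edgeR adjusted p = 0.629), or −1.23 without Jag1KO replicate 1 (edgeR adjusted p = 0.0216), a fit that called 7.3% of all genes tested. ADAMTS12 had 91.6, 122 and 84.8 CPM in Jag1WT and 53.8, 92.3 and 87.7 in Jag1KO, which overlap (log2 fold change 0.35, 95% interval −0.17 to 0.86, edgeR adjusted p = 0.695).

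The rescue comparison asked whether Jagged1 cDNA returned to the knockout cells moves these genes. It called 0 of the 5 members tested, against 0.00778% of all genes, which is 1 of 12850, while 3954 genes had an unadjusted p below 0.05. ADAMTS1 was at 86.6, 71.3 and 80.02 CPM in Jag1KO + rescue and at 68.7, 73.0 and 67.8 CPM in Jag1KO + ctrl. The ranges overlapped, and the values of both groups lay above all 3 Jag1KO and all 3 Jag1WT libraries. The log2 fold change of 0.18 had a 95% interval of −0.12 to 0.47 (edgeR adjusted p = 0.349), which does not reach the −1.79 of Jag1WT against Jag1KO.

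ADAMTS9 was at 65.6, 141.9 and 91.8 CPM in Jag1KO + rescue and at 111.6, 83.1 and 117.3 CPM in Jag1KO + ctrl. Here the rescue libraries spread more widely than the difference of the means, and the log2 fold change was −0.06 (95% interval −0.72 to 0.59, edgeR adjusted p = 0.889). ADAMTS15 was at 4.77, 5.94 and 3.11 CPM with the Jagged1 plasmid and at 11.2, 14.1 and 5.42 CPM with the empty one. The lowest control library, replicate 3, fell inside the range of the rescue, and the log2 fold change of −1.16 (95% interval −2.07 to −0.24) did not pass (edgeR adjusted p = 0.120). Without Jag1KO + ctrl replicate 3, the library with the low cell cycle level, it was −1.46 and passed (edgeR adjusted p = 0.0125), in a fit that called 28.8% of all genes tested. The control libraries left in that fit (5.72 and 6.09) all had a higher cell cycle level than the rescue libraries (4.18 to 5.02).

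ADAMTS6 was at 5.66, 26.2 and 17.2 CPM in Jag1KO + rescue and at 3.96, 7.67 and 10.7 CPM in Jag1KO + ctrl. The rescue libraries held the highest value of this gene in the series and also 1 of its low ones, and the log2 fold change of 1.13 did not pass (95% interval −0.16 to 2.42, edgeR adjusted p = 0.201). ADAMTS12 was at 30.7, 96.4 and 56.7 CPM with the Jagged1 plasmid, again a wide spread, and at 82.9, 81.0 and 67.3 CPM with the empty one (log2 fold change −0.33, 95% interval −1.17 to 0.51, edgeR adjusted p = 0.537). None of the 5 members had groups without overlap in this comparison, where 32.5% of genes did.

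The siRNA comparison lowered JAG1 in cells that had not been cloned. It called 0 of the 5 members and 0.0157% of the genes tested (2 of 12774), with 489 genes at an unadjusted p below 0.05. ADAMTS1 was at 12.9, 7.22 and 15.8 CPM in siCtrl and at 15.1, 19.7 and 22.2 CPM in siJag1. The highest siCtrl library exceeded the lowest siJag1 library, and each siJag1 library was above the siCtrl library of the same number. The log2 fold change of siCtrl against siJag1 was −0.66 (95% interval −1.34 to 0.01, edgeR adjusted p = 0.970). With the replicate number as a block it was −0.70 (SE 0.241, edgeR adjusted p = 0.580). ADAMTS9 was at 40.4, 24.5 and 33.4 CPM in siCtrl and at 43.9, 39.4 and 50.5 CPM in siJag1, with a small overlap, and a log2 fold change of −0.43 (95% interval −0.89 to 0.02, edgeR adjusted p = 0.970). With the block it was −0.46 (SE 0.139, edgeR adjusted p = 0.545). The fit with the block called 0 members and 0.0313% of all genes tested.

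ADAMTS6 had 5.59, 8.97 and 6.77 CPM in siCtrl and 8.28, 10.1 and 13.6 CPM in siJag1 (log2 fold change −0.57, 95% interval −1.16 to 0.01, edgeR adjusted p = 0.970). With the block it was −0.57 (SE 0.198, edgeR adjusted p = 0.580). ADAMTS12 was at 88.5, 111.4 and 86.4 CPM in siCtrl and 95.1, 107.0 and 89.4 CPM in siJag1 (log2 fold change −0.02, 95% interval −0.32 to 0.28). ADAMTS15 was at 21.0, 10.7 and 12.4 CPM in siCtrl and 15.9, 19.7 and 8.53 CPM in siJag1 (log2 fold change 0.01, 95% interval −0.82 to 0.83). With the block ADAMTS12 was at −0.02 and ADAMTS15 at 0.02. In all 5 members the ranges of the 2 groups overlapped, while 10.5% of genes tested had groups that did not.

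**Figure D2:**
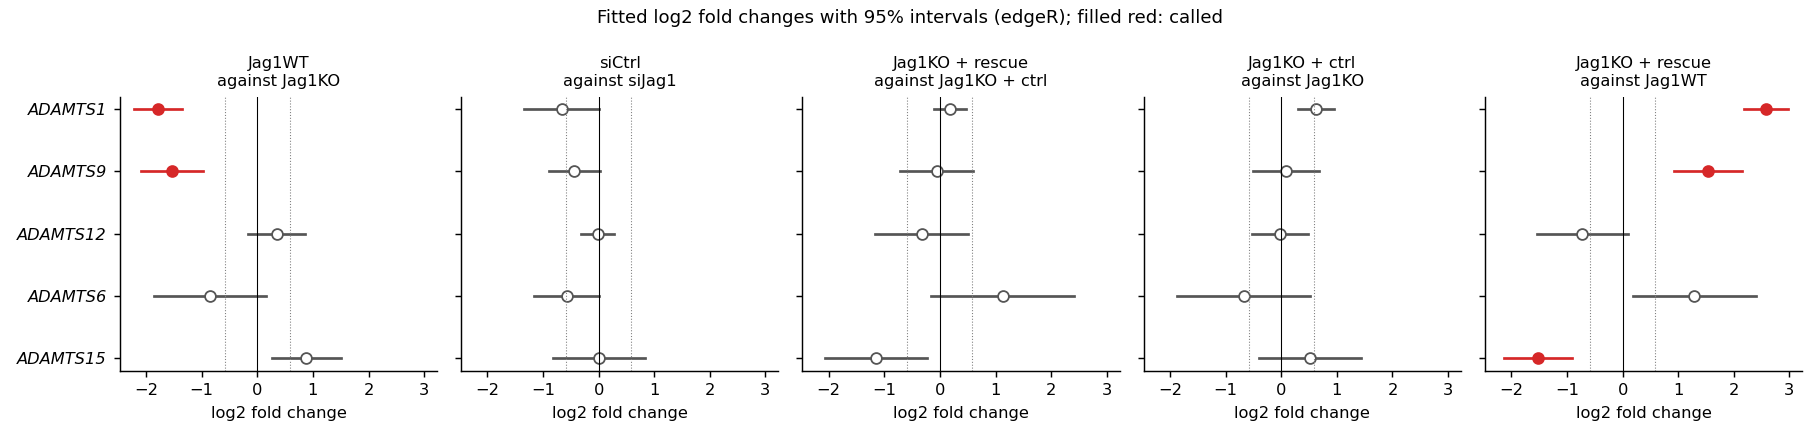
Fitted log2 fold changes of the 5 tested members (points) with 95% intervals (bars, edgeR) in 5 comparisons, with dotted lines at a fold of 1.5 in either direction. Filled red points passed both thresholds, which was the case for ADAMTS1 and ADAMTS9 in Jag1WT against Jag1KO, and for these and ADAMTS15 in Jag1KO + rescue against Jag1WT.

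Whether the 3 comparisons differed from each other was tested with interaction contrasts on 12 libraries. For ADAMTS1, the change between Jag1WT and Jag1KO differed from that with the rescue plasmid by −1.94 on the log2 scale (SE 0.219, edgeR adjusted p = 0.00268), 1 of 5 members to pass where 0.643% of genes did. The same difference for ADAMTS9 was −1.45 (SE 0.407, edgeR adjusted p = 0.0905), and for ADAMTS15 it was 2.06 (SE 0.518, edgeR adjusted p = 0.0736), its changes having opposite signs in the 2 comparisons. ADAMTS6 had −1.96 (edgeR adjusted p = 0.177) and ADAMTS12 0.70 (edgeR adjusted p = 0.395). Without Jag1KO replicate 1 and Jag1KO + ctrl replicate 3, whose cell cycle levels stood apart, 4 members passed, all but ADAMTS12, as did 18.9% of all genes. Such settings were chosen after the values were seen. This one left the cell cycle level of Jag1KO above that of Jag1WT, and that of Jag1KO + ctrl above that of Jag1KO + rescue.

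Between Jag1WT against Jag1KO and siCtrl against siJag1 no member passed, where 0.0991% of genes did. The difference was −1.12 for ADAMTS1 (SE 0.366, edgeR adjusted p = 0.890) and −1.09 for ADAMTS9 (SE 0.336, edgeR adjusted p = 0.835), so the larger values in the knockout were not shown to differ from those with the siRNA. Without Jag1KO replicate 1 and siJag1 replicate 2, ADAMTS9 passed narrowly at −1.24 (edgeR adjusted p = 0.0498), as did 1.18% of all genes. Between the siRNA and the rescue no member passed either, where 0.091% of genes did, and the differences were −0.82 for ADAMTS1 and 1.18 for ADAMTS15 (edgeR adjusted p = 0.207 and 0.284). Without siJag1 replicate 2 and Jag1KO + ctrl replicate 3, that of ADAMTS15 was 1.77 and passed (edgeR adjusted p = 0.0260), as did 31.9% of all genes.

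The 2 control comparisons changed JAG1 in neither group on purpose. Jag1KO + ctrl differed from Jag1KO by the empty plasmid and the selection, and it called 0% of the 12956 genes tested and 0 members, with 753 genes at an unadjusted p below 0.05. ADAMTS1 was nevertheless at 67.8 CPM or more in Jag1KO + ctrl and at 51.1 CPM or less in Jag1KO, with a log2 fold change of 0.63 (SE 0.140, 95% interval 0.30 to 0.95, edgeR adjusted p = 0.757). It was 1 of 5 members with groups that did not overlap, which held for 10.1% of genes. The other members overlapped there, with log2 fold changes of 0.08 for ADAMTS9, −0.03 for ADAMTS12, −0.67 for ADAMTS6 and 0.52 for ADAMTS15. siCtrl against Jag1WT differed by the transfection and called 0% of 12797 genes and 0 members (176 genes with an unadjusted p below 0.05). The members' log2 fold changes there lay between −0.13 (ADAMTS1) and 0.17 (ADAMTS15), and none had groups without overlap, against 6.3% of genes.

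Jag1KO + rescue against Jag1WT, which shares its libraries with the comparisons above, set cells with similar JAG1 levels side by side. It called 3 of the 5 members and 3.49% of 12794 genes. ADAMTS1 was 5.98-fold higher in Jag1KO + rescue (log2 fold change 2.58, SE 0.172, edgeR adjusted p = 0.000402) and kept this call whichever library was left out. ADAMTS9 was 2.90-fold higher (log2 fold change 1.54, SE 0.270, edgeR adjusted p = 0.0241), and ADAMTS15 was 2.88-fold lower (log2 fold change −1.53, SE 0.267, edgeR adjusted p = 0.0240). These 3 members had groups that did not overlap, as did 30.5% of genes. The calls of ADAMTS9 and ADAMTS15 were lost without Jag1WT replicate 1, 2 or 3 or Jag1KO + rescue replicate 3, with edgeR adjusted p from 0.0573 to 0.153, so that 1 to 4 members were called in the 6 fits.

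ADAMTS6 (log2 fold change 1.29, edgeR adjusted p = 0.148) and ADAMTS12 (log2 fold change −0.72, edgeR adjusted p = 0.248) were not called in that comparison, although ADAMTS6 passed without Jag1KO + rescue replicate 1 (edgeR adjusted p = 0.0162, with 3.14% of all genes called) and ADAMTS12 without Jag1KO + rescue replicate 2 (edgeR adjusted p = 0.0208, with 9.82% called). Libraries of the same number deviated together in these 2 groups, and once the replicate number entered the fit as a block all 5 members and 10.5% of all genes were called, with ADAMTS6 at 1.13 (edgeR adjusted p = 0.0192) and ADAMTS12 at −0.84 (edgeR adjusted p = 0.0137).

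Set out by level, the 6 conditions fell into the same order of cell background for ADAMTS1 and ADAMTS9. ADAMTS1 had its lowest mean in siCtrl (11.97 ± 4.35 CPM), followed by Jag1WT (12.96 ± 2.79), siJag1 (19.0 ± 3.57), Jag1KO (44.6 ± 5.602), Jag1KO + ctrl (69.8 ± 2.79) and Jag1KO + rescue (79.3 ± 7.70). Neighbours in this order overlapped except at the steps from siJag1 to Jag1KO and from Jag1KO to Jag1KO + ctrl. ADAMTS9 ran from siCtrl (32.8 ± 7.97 CPM) and Jag1WT (33.8 ± 5.46) through siJag1 (44.6 ± 5.57) to Jag1KO (97.1 ± 29.9), Jag1KO + rescue (99.8 ± 38.8) and Jag1KO + ctrl (104.0 ± 18.4). Jag1WT and siJag1 did not overlap for ADAMTS9, though their nearest libraries were at 39.26 and 39.43 CPM. Neither did siJag1 and Jag1KO, while the 3 Jag1KO conditions did overlap. The share of all genes without overlap was not computed for Jag1WT with siJag1 or for siJag1 with Jag1KO. In the comparisons tested it was 6.3% to 32.5%.

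For ADAMTS6, ADAMTS12 and ADAMTS15 all neighbours in the order overlapped. ADAMTS6 ranged from a mean of 6.58 CPM in Jag1WT to 16.4 CPM in Jag1KO + rescue, ADAMTS12 from 61.3 CPM in Jag1KO + rescue to 99.4 CPM in Jag1WT, and ADAMTS15 from 4.61 CPM in Jag1KO + rescue to 14.7 CPM in siCtrl. An F test over all 18 libraries found differences among the 6 conditions for ADAMTS1 (edgeR adjusted p = 1.86e-06) and ADAMTS9 (edgeR adjusted p = 0.00106), and for 8.66% of the 13323 genes tested. It narrowly missed ADAMTS15 (edgeR adjusted p = 0.0514), and gave 0.276 for ADAMTS6 and 0.377 for ADAMTS12.

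Read by cell background, a grouping of the labelled conditions made after the values were seen, ADAMTS1 spanned 7.22 to 22.2 CPM over the 9 libraries of parental origin (Jag1WT, siCtrl and siJag1) and 41.1 to 86.6 CPM over the 9 of Jag1KO origin. ADAMTS9 spanned 24.5 to 50.5 and 63.4 to 142 CPM. Both were free of overlap, as were 1.06% of the 13323 genes (141), and JAG1 was low in 3 of the 9 parental libraries and high in 3 of the 9 of Jag1KO origin. ADAMTS6 (5.48 to 13.6 against 3.96 to 26.2 CPM), ADAMTS12 (84.8 to 122 against 30.7 to 96.4) and ADAMTS15 (8.53 to 21.0 against 3.11 to 14.1) overlapped between the backgrounds.

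**Figure D3:**
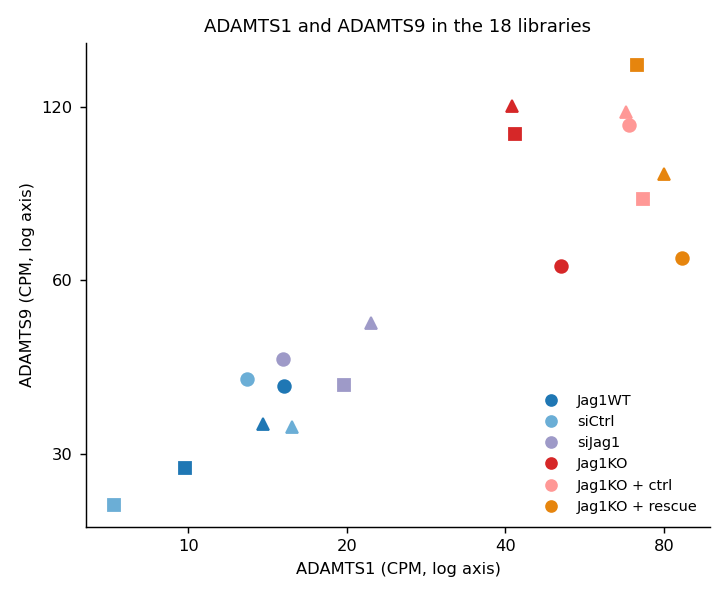
ADAMTS1 (horizontal) against ADAMTS9 (vertical), both in TMM-normalized CPM on log axes, in the 18 libraries, with circles, squares and triangles for replicates 1, 2 and 3. The 9 libraries of parental origin lie at the lower left, at most 22.2 CPM of ADAMTS1 and 50.5 CPM of ADAMTS9, and the 9 of Jag1KO origin at the upper right.

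Across the 18 libraries, the log2(CPM + 1) of ADAMTS1 and ADAMTS9 had a Pearson r of 0.89, and both ran against ADAMTS15 (r −0.65 and −0.61). ADAMTS12 had an r of −0.65 with ADAMTS1 and 0.54 with ADAMTS15. These values are descriptions, since the libraries fall into 2 cell backgrounds and 6 conditions that all genes share. Among the 9 libraries of Jag1KO origin, the one with the highest ADAMTS1 level (Jag1KO + rescue replicate 1) had an ADAMTS9 level of 65.6 CPM, near the lowest of the 9.

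Levels of different genes were compared per kilobase of gene length, as RPKM (the CPM divided by the authors' length of the gene). ADAMTS12 led in every library of parental origin, with 33.9 to 54.8% of the summed RPKM of the 7 members. In the libraries of Jag1KO origin ADAMTS1 or ADAMTS9 led, and ADAMTS12 made up 8.11 to 22.7%. The mean level was 8.13 ± 1.62 RPKM for ADAMTS12, 4.33 ± 0.699 for ADAMTS9 and 2.79 ± 0.599 for ADAMTS1 in Jag1WT, and 6.37 ± 1.72, 12.4 ± 3.83 and 9.59 ± 1.20 in Jag1KO. In Jag1KO + rescue ADAMTS1 reached 17.1 ± 1.66 RPKM and ADAMTS12 5.01 ± 2.70. The summed RPKM of the members was 16.6 to 22.5 in the parental libraries and 25.5 to 45.4 in those of Jag1KO origin.

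**Figure D4:**
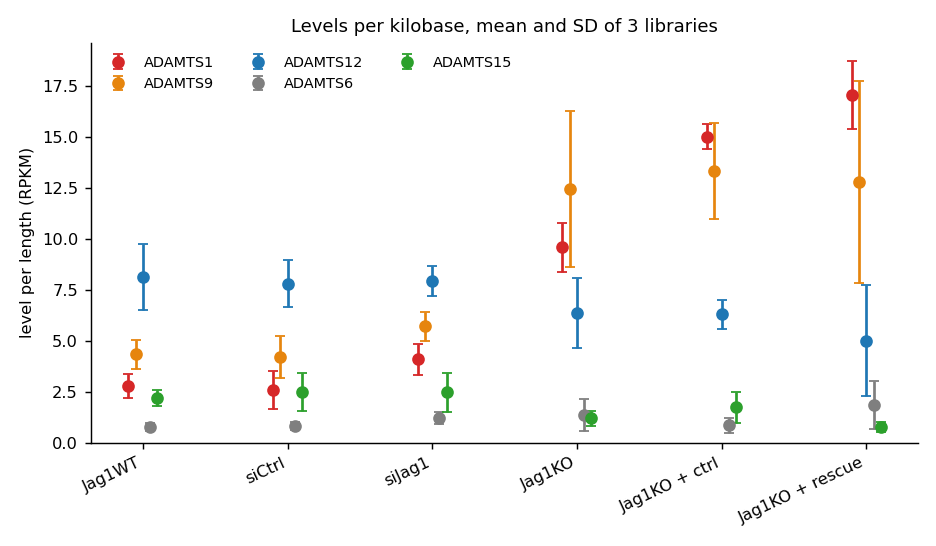
Level per kilobase (RPKM) of the 5 detected members by condition, as the mean of 3 libraries with the SD as error bars. ADAMTS12 is the highest in Jag1WT, siCtrl and siJag1 and lies below ADAMTS1 and ADAMTS9 in the 3 Jag1KO conditions.

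The genes whose pattern over the 18 libraries was most like that of a member were found among 12757 genes by Pearson's r on log2(CPM + 1). For ADAMTS1 they were CSMD1 (r 0.960), LINC02864 (0.951) and IL13RA2 (0.949), and for ADAMTS9 NR3C2 (0.945), CSMD1 (0.938) and ZNF300 (0.930). CSMD1 was on both lists. ADAMTS12 was most like SLC4A8 (0.959) and MICAL2 (0.947), ADAMTS6 like ANXA3 (0.908), ERBIN (0.905) and ZBTB38 (0.904), and ADAMTS15 like ARHGEF4 (0.911), MAVS (0.909) and ENDOD1 (0.891). The points share libraries, depth and the 2 cell backgrounds.

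The cell cycle level moved with some members within groups. After each group mean was removed, its r with ADAMTS12 was 0.66 over the 18 libraries, with ADAMTS6 0.34, with ADAMTS15 0.31, with ADAMTS9 0.05 and with ADAMTS1 −0.36. With this level as a covariate in a fit of all 18 libraries, ADAMTS1 changed by −1.87 and ADAMTS9 by −1.48 between Jag1WT and Jag1KO (edgeR adjusted p = 0.000104 and 0.0104). Between the fits of all 18 libraries without and with the covariate, ADAMTS12 went from 0.35 to 0.64 (edgeR adjusted p = 0.826 and 0.213), ADAMTS6 from −0.84 to −0.58 (0.745 and 0.705) and ADAMTS15 from 0.88 to 1.03 (0.589 and 0.242). Markers of other cell types were mostly near 0, with at most 3 reads for COL1A2, PTPRC and CD3E, 2 for DCN and 1 for CDH5. The summed endothelial markers (PECAM1, CDH5 and KDR) were at 12.1 to 13.2 CPM in siCtrl, 13.0 to 13.8 in Jag1WT, 14.8 to 18.6 in Jag1KO, 17.3 to 22.5 in Jag1KO + ctrl, 17.2 to 19.5 in Jag1KO + rescue and 17.5 to 18.9 in siJag1. This sum came almost wholly from PECAM1 and KDR. It was higher in Jag1KO than in Jag1WT, as ADAMTS1 and ADAMTS9 were, and its ranges in siJag1 and Jag1KO + rescue overlapped. ADAMTS1 was at 15.1 to 22.2 CPM in siJag1 and 71.3 to 86.6 CPM in Jag1KO + rescue. The part of these markers in the result was not tested. The leukocyte sum, nearly all CD68, overlapped between Jag1WT (99.2 to 133 CPM) and Jag1KO (89.6 to 164), as did the fibroblast sum (5.24 to 9.40 and 4.57 to 8.26), and COL3A1 had no row.

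Of the 10 other ADAMTS family genes in the table, 3 were tested in Jag1WT against Jag1KO and 0 were called. In this comparison 0.714% of all genes tested were called. ADAMTS16 (8.71 to 21.2 CPM) and ADAMTS17 (3.48 to 10.5 CPM) were present in all libraries, and ADAMTS14 reached 4.59 CPM. ADAMTS4 and ADAMTS8 had 1 read each over all libraries. ADAMTS-like proteins share the ancillary domains but lack the protease: of 6 in the table, 4 were tested and 0 called, with a median log2 fold change of 0.06 against −0.01 for all genes.

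The inhibitor list (TIMP1 to TIMP4, A2M and SERPINE2) had 1 called gene of 5 tested in Jag1WT against Jag1KO, where 0.714% of all genes were called. TIMP1, an inhibitor mainly of matrix metalloproteinases, was higher in Jag1WT by 0.66 on the log2 scale (edgeR adjusted p = 0.0417), opposite to ADAMTS1 and ADAMTS9. TIMP3, the inhibitor most tied to ADAMTS proteases, had a log2 fold change of 0.49 and did not pass (edgeR adjusted p = 0.285). The median of the 5 was 0.49. Among furin-like convertases, the glycosylation enzymes POFUT2 and B3GLCT and the receptor LRP1, 0 of 6 tested were called (median 0.38). Among 9 tested substrates 1 was called, LTBP1, a matrix protein that binds latent TGFβ, higher in Jag1WT by 0.71 (edgeR adjusted p = 0.0457), and the median of the list was 0.04. TIMP1 and LTBP1 both kept the call in 1 of the 6 fits that left out a library, the one without Jag1KO replicate 1, in which 7.3% of all genes were called. In the rescue and the siRNA comparisons 0 genes of these lists were called, where 0.00778% and 0.0157% of all genes tested were. The medians there were 0.14 and 0.24 for the inhibitors, −0.08 and 0.06 for the convertase, glycosylation and receptor list, and 0.36 and 0.30 for the substrates. TIMP3 was at −0.51 in the rescue and 0.33 with the siRNA. LRP1, at 0.57 between Jag1WT and Jag1KO, was at −1.18 and 0.04.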

How the data were processed

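Messenger RNA was measured by stranded sequencing of 18 libraries. The authors aligned 2 × 50 base reads to hg38 and counted uniquely mapped reads per gene. The submitters' processing notes name featureCounts, MultiQC 1.5, R 3.6.1 and edgeR 3.28.0, and the aligner is not given in the sources used here. The deposited counts are whole numbers for 21411 rows. Rows without a symbol (292) held up to 0.0442% of the counts of a library. The deposited CPM, listed as a signal because some columns exceed the sum that plain CPM can have, are those counts per TMM-scaled library size, as checked on the values. The deposited RPKM are the authors' CPM over 1 length per gene. The 3 RPKM columns whose names match no sample were not used, and levels per kilobase were computed from the CPM and the same lengths.

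Depth was 10330581 to 18327890 counts per library, which limits only the low genes here. Samples were grouped by their labels. The counts were tested with edgeR 4.0.16 (quasi-likelihood, TMM, R 4.3.3) on the 6 libraries of each comparison, for genes that exceeded 1 CPM in 3 or more of these libraries. Genes with a Benjamini-Hochberg FDR below 0.05 over all genes tested and a fold above 1.5 were called, thresholds taken from the study, whose own test (ROTS) was not run. Interactions used 12 libraries and an FDR below 0.05. Standard errors and 95% intervals come from the F statistic and its degrees of freedom. The exact permutation test of 3 libraries against 3 cannot give a two-sided p below 0.1, so no such test was used. The procedure was tested on simulated data, drawn with a common dispersion for all genes. Of 100 changes of 2-fold it called 81 for the knockout comparison, 51 for the rescue and 81 for the siRNA. Of 100 changes of 4-fold it called 100 in each. False calls numbered 8 for the knockout, 8 for the rescue and 12 for the siRNA comparison. The changes were put only into genes well above the filter on low values, and no shift in cell cycle level was simulated. These shares need not hold for the members, above all for ADAMTS6 and ADAMTS15. The numbers were taken to pair libraries where same-numbered deviations correlated above 0.1 in every pair, which held for siCtrl and siJag1 (0.543, 0.522, 0.264), siCtrl and Jag1WT (0.595, 0.713, 0.210) and Jag1KO + rescue and Jag1WT (0.542, 0.603, 0.370). Where these correlations came from was not tested. Alternatives were DESeq2 (1.42.0), its size factors, limma (3.58.1) on log2(CPM + 1) and log2(CPM + 0.5), no filter, the replicate block, fits of all 18 libraries with and without a cell cycle covariate (97 genes from Seurat 5.3.0) and each library left out. Named genes were the 7 members, JAG1, the 3 genes most like each member and list genes called in a JAG1 comparison. Of these, 1 is not reported here. The members and lists were chosen with earlier results of these data known.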

Additional observations from a re-analysis of the deposited data

Results flagged for a closer look

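The change of ADAMTS1 differed between the knockout and the rescue comparison. It was −1.79 on the log2 scale for Jag1WT against Jag1KO and 0.18 for Jag1KO + rescue against Jag1KO + ctrl, and the interaction over 12 libraries was −1.942 (SE 0.219, edgeR adjusted p = 0.00268). ADAMTS1 was lower in each Jag1WT library than in each Jag1KO library, while the rescue and its control overlapped. Neither interaction with the siRNA comparison passed for ADAMTS1 (−1.12 from the knockout and −0.82 from the rescue, edgeR adjusted p = 0.890 and 0.207). Loss of Jagged1 and clonal origin cannot be told apart between Jag1WT and Jag1KO.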

How the results depend on the processing

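In Jag1WT against Jag1KO, 2 members were called under DESeq2 size factors, no filter, limma with either pseudocount, DESeq2 and both fits of all 18 libraries, and 3 with the replicate block, where ADAMTS15 passed (0.90, edgeR adjusted p = 0.0446) and 2.19% of all genes were called. Where 2 members were called, so were 0.714% to 2.06% of all genes. Leaving out 1 library gave 0 to 3 members, where 0.0626% to 7.3% of all genes were called. In Jag1KO + rescue against Jag1KO + ctrl, 1 member (ADAMTS15) was called with DESeq2 (−1.15, with 12.3% of all genes) and with all 18 libraries (−1.17, with 16.3%). Once the cell cycle covariate entered that fit of all 18, ADAMTS15 was at −0.95 and was not called (edgeR adjusted p = 0.1205), while 9.68% of all genes were. Leaving out a library in this rescue comparison gave 0 to 1, with 0 to 28.8% of all genes called. In Jag1KO + rescue against Jag1WT, the replicate block gave 5 (with 10.5% of all genes) and leaving out a library 1 to 4 (with 0.323% to 9.82%). ADAMTS6 passed there with DESeq2 (1.30, with 6.84% of all genes) and ADAMTS12 with the cell cycle covariate (−0.79, with 10.7%). For the difference between Jag1WT against Jag1KO and the rescue, 2 members passed with the replicate block, ADAMTS15 being added (2.04, edgeR adjusted p = 0.0287), and 4 without the libraries apart in cell cycle level, where ADAMTS6 was at −2.69, ADAMTS9 at −1.77 and ADAMTS15 at 2.49. Of all genes, 0.454% passed with the block and 18.9% without those libraries. For both other differences the setting without those libraries gave 1 each. There 1.18% of all genes passed for the knockout and siRNA, and 31.9% for the siRNA and rescue. The causes were not tested.

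Directions turned only for values near 0. ADAMTS12 became 0.10 in siCtrl against siJag1 with the cell cycle covariate, and 0.0168 and 0.0172 in Jag1KO + ctrl against Jag1KO with limma at a pseudocount of 1 and 0.5. With a library left out, ADAMTS9 ran from −0.42 to 0.17 in the rescue comparison and from −0.15 to 0.28 in Jag1KO + ctrl against Jag1KO, where ADAMTS12 ran from −0.24 to 0.12. In siCtrl against siJag1, ADAMTS12 ran from −0.14 to 0.0647 and ADAMTS15 from −0.35 to 0.28. In siCtrl against Jag1WT the ranges were −0.38 to 0.13 (ADAMTS1), −0.10 to 0.34 (ADAMTS6), −0.23 to 0.12 (ADAMTS9), −0.20 to 0.11 (ADAMTS12) and −0.18 to 0.35 (ADAMTS15). Across the settings that leave out no single library, 284 member values kept direction and call, 13 newly passed and 3 turned direction.

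By the rule of r above 0.1 in every pair, the replicate numbers were not taken to pair the libraries of Jag1WT with Jag1KO (r 0.632, 0.668 and −0.01), of the rescue with its control (−0.21, 0.345 and 0.242) or of Jag1KO + ctrl with Jag1KO (−0.36, 0.279 and −0.61). In each of these the rule failed although at least 1 value was above 0.1. For those comparisons the replicate block is considered only in this section. Where the numbers were taken to pair the libraries, the block changed no member's call but those named for Jag1KO + rescue against Jag1WT. With a library left out, the arm it leaves has 2 samples. ADAMTS7 and ADAMTS10 are limited by depth.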

Other observations

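The ADAMTS-like proteins, which lack a protease domain, included THSD4 at a median of 11.0 RPKM over the 18 libraries and ADAMTSL1 at 7.202 RPKM. The pooled medians of the inhibitors were 133 RPKM for TIMP1, 80.5 for TIMP2 and 19.0 for TIMP3. These medians pool both cell backgrounds, between which ADAMTS1 ran from group means of 2.57 to 4.09 RPKM in the parental conditions to 9.59 to 17.1 RPKM in the Jag1KO conditions.

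ADAMTS5, another proteoglycanase, was named after its values were seen. It had 4, 22 and 9 reads in Jag1KO replicates 1, 2 and 3, 4, 23 and 19 reads in Jag1KO + rescue, 3, 2 and 16 reads in Jag1KO + ctrl and at most 4 reads in any library of parental origin. It failed the filter in each comparison of 6 libraries. In the fit of all 18 it missed the threshold (edgeR adjusted p = 0.0632, any difference among the 6 conditions), as did its difference between Jag1WT against Jag1KO and the rescue (−3.71 on the log2 scale, edgeR adjusted p = 0.150).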
